A study of Mus musculus with 69 samples.

Results

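Loss of the transcription factor Blimp-1, encoded by Prdm1, was compared with its controls in mouse CD4 T cells driven toward type 1 regulatory (Tr1) cells. Libraries were chosen by their titles: 3 libraries of the Prdm1 knockout and the 3 control libraries that it shares with a Maf knockout and a double knockout, 6 of the 69 libraries of the series. The knockout genotype is CD4 Cre(+/-); Prdm1 f/f. The control genotype is given only as Cre-negative for Prdm1/Maf, so the alleles that these mice carried beyond the lack of Cre are not stated. CD4-Cre is active from the thymic stage at which CD4 and CD8 are both expressed, so Prdm1 is deleted in all later αβ T cells and before the culture begins. All groups were C57BL/6, were sampled after 72 h and received IL-27 at 25 ng/ml with antibody to CD3 at 1 ug/ml. An antibody to CD8 at 1 ug/ml is named in the labels as well, and no age or sex of the mice is given. Naive CD4 cells were the starting material, 2000 cells were lysed per library, and RNA with a poly(A) tail was read out by an adapted SMART-Seq2 protocol. The Maf knockout, CD4 Cre(+/-); Maf f/f with 3 libraries, and the double knockout, with CD4 Cre(+/-), Prdm1 f/f and also Maf f/f and with 2 usable libraries, entered the same fit, so that they share its estimate of spread, and were used to measure the Prdm1 effect on a second background and to set the 2 single knockouts side by side.

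Blimp-1 is a zinc-finger protein that mostly represses transcription and is best known for ending the B cell programme in plasma cells. In T cells it is induced by strong stimulation and by cytokines such as IL-2, IL-12 and IL-27, opposes Bcl6 and the memory-associated factor Tcf7, and accompanies effector differentiation. Tr1 cells lack the regulatory T cell factor Foxp3 as a defining trait and act through secreted IL-10. Blimp-1 and c-Maf, the product of Maf, are both known as promoters of Il10 transcription in T cells.

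The 6 libraries held 7571823 to 10733395 counts in 13002 to 13640 genes. Prdm1 knockout replicate 3 lay apart from the other knockout libraries. On the first principal component of the 11 libraries fitted together it stood at 18.5, against 6.8 and 9.4 for replicates 1 and 2, with the controls between -23.3 and -18.1. On the third component it stood at 3.9, against -16.6 and -21.1 for replicates 1 and 2. Replicate 3 was the knockout library farthest from the control mean for 700 of the 1367 genes called below, and counts are therefore also given without it. Whether replicates are separate mice or cultures is not given, and every p-value here therefore rests on library-to-library spread, which may be technical. T cell markers were well expressed in every library. Cd4 lay at 622, 547 and 617.9 CPM (counts adjusted for library size) in the controls and at 594, 637 and 578 in the knockout. Cd3e, part of the T cell receptor complex, lay at 336, 351 and 337 CPM in the controls and at 301, 311 and 294 in the knockout.

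Prdm1 itself lay at 26.2, 28.4 and 25.1 CPM in the control libraries and at 3.33, 2.03 and 4.48 in the knockout libraries. Every knockout library was below every control library, by 7.87-fold in the fit (log2 change -2.98 ± 0.18, estimate ± approximate standard error (SE), edgeR quasi-likelihood test, adjusted p = 3e-10). The SE was derived from the F statistic of the test, as the size of the change over the square root of F. For large changes that end in few counts it can be too small. Between 18 and 51 counts of Prdm1 remained per knockout library. A gene total cannot show whether the remaining RNA lacks the floxed part, and no value here measures the protein. Of the 20 tested genes nearest to Prdm1 on its chromosome, 1 was higher and 1 was lower past the threshold. This share was close to the 12.1% called among all genes tested. Log2 changes of the 20 neighbours ran from -0.22 to 0.94.

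Il10 showed the largest fall among the genes with at least 20 CPM. Its level was 88.8, 83.8 and 85.9 CPM in the controls and 2.35, 2.03 and 0.70 CPM in the knockout. The groups were far apart, with a 52.0-fold lower level in the knockout (-5.70 ± 0.17, adjusted p = 3.21e-15). Only 8 to 24 Il10 counts were left per knockout library, so the printed SE may be too small. Maf was also lower, at 27.7, 23.8 and 23.1 CPM in the knockout against 48.8, 50.2 and 47.0 in the controls, a 1.96-fold difference (-0.97 ± 0.10, adjusted p = 4.86e-06). In bulk RNA, fewer cells that express a gene and less of its RNA per cell cannot be told apart. The plot of levels by library shows these genes with 9 others.

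**Figure D1:**
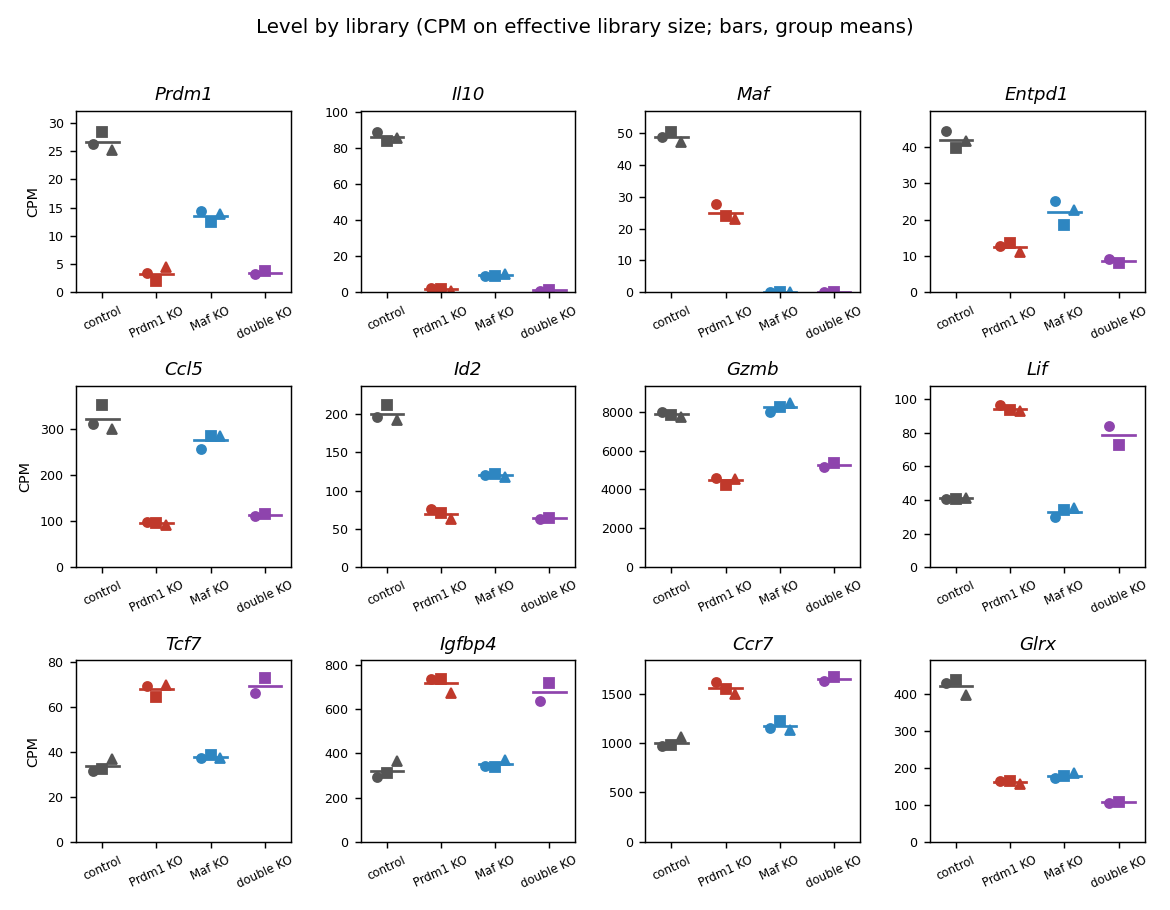
Level of 12 genes in each library in CPM (y axis, from 0) for control, Prdm1 knockout, Maf knockout and double knockout libraries; circles, squares and triangles are replicates 1, 2 and 3, and bars are group means. Il10 lay between 83.8 and 88.8 CPM in the controls and between 0.70 and 2.35 CPM in the Prdm1 knockout.

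Of 11316 genes tested, 1367 passed an adjusted p of 0.05 between Prdm1 knockout and control, or 12.1%. Of these, 562 were higher in the knockout (4.97% of genes tested) and 805 were lower (7.11%). The counts in gene lists below stand against these shares. Most changes were small, with a median absolute log2 change of 0.35 among genes called, and 64 genes rose and 51 fell by at least 1 on the log2 scale. Knockout and control libraries did not overlap for 1306 of the 1367, and for 27.6% of all genes tested. Genes ranked here by log2 change over all genes tested had to show no overlap, so for them separation was a condition of naming. Without knockout replicate 3 the count was 1130, of which 943 were among the 1367. In that refit 475 of 11247 genes tested were higher and 655 were lower. The count fell to 763 without control replicate 1 and to 891 without control replicate 2. It was 908 when the Maf and double knockout libraries were kept out of the fit.

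**Figure D2:**
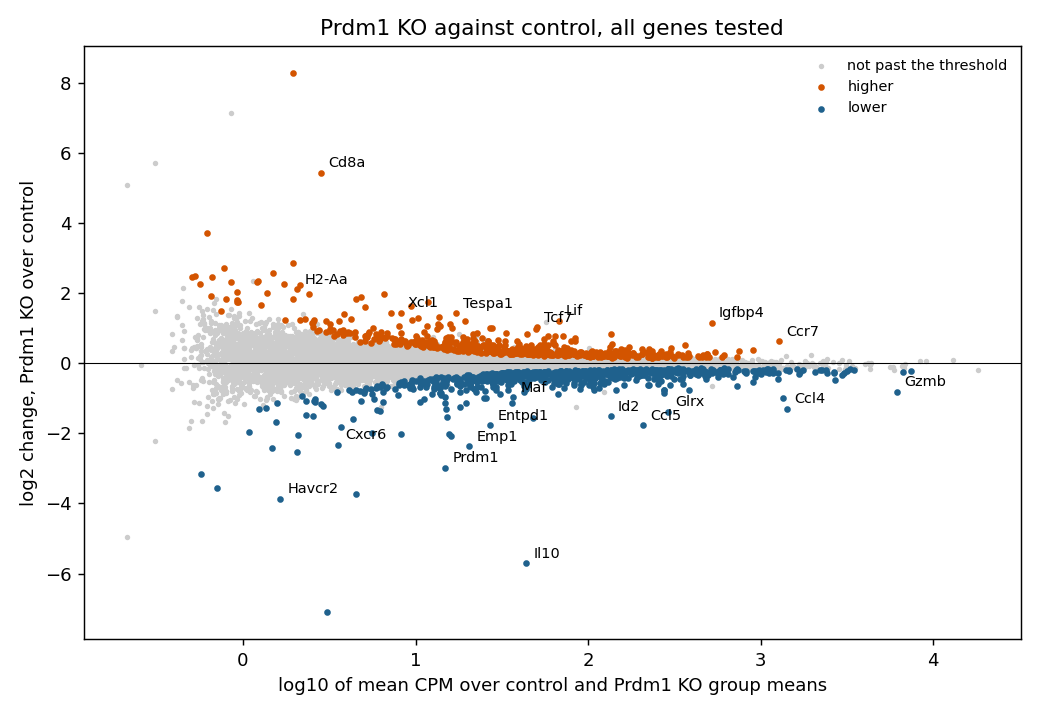
Log2 change in the Prdm1 knockout over control (y axis) against log10 of the mean CPM of the 2 groups (x axis) for the 11316 genes tested; orange and blue points passed the threshold as higher and lower, and grey points did not. Il10 lies at -5.70, Prdm1 at -2.98 and Lif at 1.21.

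The Tr1 marker list moved mostly down. Of 24 tested members, 13 fell, 3 rose and 8 did not pass, and the median log2 change was -0.26 against 0.01 over all genes tested. The 13 include Prdm1, the deleted gene, whose fall was set by the design. Without knockout replicate 3 these counts were 11 and 3. Entpd1, which encodes CD39, an enzyme that degrades extracellular ATP, lay at 44.4, 39.6 and 41.7 CPM in the controls and at 12.6, 13.4 and 10.97 in the knockout (3.41-fold lower, -1.77 ± 0.12, adjusted p = 1.4e-09). Nt5e, which encodes CD73, the enzyme that acts after CD39, moved the other way, from 17.8, 17.9 and 16.3 to 25.9, 25.1 and 29.3 CPM. The 2 groups were separate for Nt5e, and for Entpd1 separation was a condition of naming. Il10ra, a chain of the IL-10 receptor, rose by 0.63 ± 0.08, from 49.4, 49.5 and 48.7 to 74.3, 79.0 and 75.9 CPM (adjusted p = 9.69e-06).

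Co-inhibitory receptors were mixed, with 6 of 18 tested members lower, 3 higher and 9 not past the threshold. Havcr2, which encodes TIM-3, was already low in the controls, with 19, 21 and 38 counts, and had 0, 2 and 4 counts in the knockout. Its summed counts, scaled to library size, were 15.3-fold lower (adjusted p of the fit = 0.000117). As a ratio of knockout over control this is 0.065, with a 95% exact interval from 0.023 to 0.149 that covers counting error only. Ctla4 fell by 0.76 ± 0.06, Tigit fell by 0.61 ± 0.06 and Klrc1, which encodes the inhibitory receptor NKG2A, fell by 0.58 ± 0.07. Lag3, often used as a Tr1 surface marker, fell only by 0.24 ± 0.06, from 1040, 1037 and 1074 to 873, 975 and 814 CPM (adjusted p = 0.00592). Pdcd1, which encodes PD-1, did not pass the threshold (-0.15 ± 0.05, adjusted p = 0.0731). Procr, which encodes the protein C receptor, rose by 1.06 ± 0.18, and Cd200 rose by 0.31 ± 0.05. Icos, a co-stimulatory receptor counted in the Tr1 list, fell by 0.63 ± 0.05 from 267, 268 and 273 to 176, 171 and 173 CPM.

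The chemokines Ccl5, Ccl4 and Ccl3, which attract effector T cells and myeloid cells, were lower in the knockout. Ccl5 lay at 311, 352 and 300 CPM in the controls and at 96.9, 95.4 and 91.5 in the knockout (3.39-fold lower, -1.76 ± 0.06, adjusted p = 3.19e-14). Ccl4 fell from 1915, 2177 and 1957 to 843, 792 and 832 CPM, and Ccl3 fell from 1698, 1991 and 1664 to 955, 896 and 850 CPM. Ccl4 and Ccl3 had no overlap between the groups, and for Ccl5 this was a condition of naming. The chemokine Xcl1, a ligand of dendritic cell XCR1, rose by 1.44 ± 0.19 from 4.28, 4.06 and 5.001 to 10.9, 10.3 and 14.8 CPM. Of 7 chemokines tested, 4 fell, 1 rose and 2 did not pass.

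Among 14 tested chemokine and lymphoid homing receptors, 5 rose, 4 fell and 5 did not pass. Ccr7, which guides T cells into lymph nodes, rose from 973, 975 and 1061 to 1615, 1547 and 1496 CPM (0.63 ± 0.05, adjusted p = 2.78e-08). S1pr1, needed for exit from lymphoid organs, rose by 0.85 ± 0.12, and Cxcr5, the receptor for entry into B cell follicles, rose by 1.20 ± 0.27 from 2.19, 2.16 and 2.14 CPM to 4.70, 6.78 and 3.69. Cxcr3, a receptor for interferon-induced chemokines, rose by 0.61 ± 0.14 from 10.05, 9.60 and 9.53 to 15.1, 12.7 and 16.8 CPM. Ccr1, a receptor for inflammatory CC chemokines, fell from 31.8, 23.9 and 21.4 to 7.05, 7.12 and 4.39 CPM (-2.08 ± 0.20, adjusted p = 4.57e-07). Ccr2 fell by 0.78 ± 0.12, and Cxcr6 fell from 6.76, 6.36 and 4.64 to 0.98, 1.13 and 1.40 CPM.

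Of 20 tested cytokines, 4 rose, 3 fell and 13 did not pass, and without knockout replicate 3 the counts were 2 and 2. Lif, an IL-6 family cytokine, rose from 40.8, 40.8 and 41.2 to 96.8, 93.5 and 93.0 CPM (2.31-fold, 1.21 ± 0.08, adjusted p = 6.23e-10). Tnfsf14, which encodes LIGHT, rose by 0.84 ± 0.08. The groups did not overlap for Tnfsf14, and for Lif this was a condition of naming. Ifng lay at 92.4, 106 and 104 CPM in the controls and at 86.9, 86.2 and 70.0 in the knockout (-0.32 ± 0.08, adjusted p = 0.0136), a call that was lost without control replicate 2 or knockout replicate 3. Il21 did not pass (-0.16 ± 0.07, adjusted p = 0.144), and Il2 had a level of at most 1.91 CPM in any of the 6 libraries and did not pass (adjusted p = 0.377). Among 32 cytokine receptors and their signal transducers, 7 rose and 8 fell, and without knockout replicate 3 the counts were 6 and 5. The decoy receptor for IL-1, Il1r2, fell from 74.3, 68.7 and 71.3 to 23.1, 31.4 and 19.2 CPM (-1.55 ± 0.11, adjusted p = 4.78e-09), while the IL-2 receptor chains Il2ra and Il2rb fell by 0.40 ± 0.05 and by 0.35 ± 0.06. The IL-27 receptor chain Il27ra did not pass (0.03 ± 0.06, adjusted p = 0.779), nor did its partner Il6st (-0.18 ± 0.14, adjusted p = 0.457).

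Genes of naive and memory T cells were among the larger rises. Tcf7, which encodes TCF-1, lay at 31.3, 32.3 and 36.8 CPM in the controls and at 69.2, 64.4 and 69.7 in the knockout (2.03-fold higher, 1.02 ± 0.08, adjusted p = 1.12e-08). Igfbp4, an insulin-like growth factor binding protein expressed in naive T cells, rose from 292, 309 and 365 to 737, 738 and 674 CPM, and Tespa1, an adaptor of T cell receptor signalling, rose from 9.55, 9.60 and 9.05 to 24.4, 22.4 and 28.4 CPM. All 3 genes were named by the ranking that required no overlap between the groups. The list did not move one way as a whole: of 28 tested members 11 rose, 7 fell and 10 did not pass, with a median log2 change of 0.004. Satb1, a chromatin organiser, fell by 0.45 ± 0.06, Ly6c2 fell by 0.71 ± 0.10 and Ramp1, a subunit of the calcitonin gene-related peptide receptor, fell by 0.84 ± 0.13.

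Id2 and Id3, related inhibitors of E-protein transcription factors, changed in opposite directions. Id2 lay at 197, 212 and 192 CPM in the controls and at 75.9, 71.2 and 63.0 in the knockout (2.87-fold lower, -1.52 ± 0.07, adjusted p = 1.27e-12). Id3 lay at 13.8, 18.4 and 14.1 CPM and at 25.96, 26.4 and 29.9 (0.85 ± 0.11, adjusted p = 3.65e-05). The groups did not overlap for Id3, and for Id2 this was a condition of naming. Of 16 tested follicular helper genes 7 rose, 2 fell and 7 did not pass, with a median log2 change of 0.26. Bcl6, the factor that Blimp-1 opposes, was 3.78, 5.41 and 5.24 CPM in the controls and 5.88, 7.23 and 7.90 in the knockout, and did not pass the threshold (0.56 ± 0.19, adjusted p = 0.0592). Pou2af1 and Sh2d1a rose by 0.51 ± 0.11 and 0.46 ± 0.09, and Asb2 fell by 0.47 ± 0.07.

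A list of 27 genes known as Blimp-1 targets in B or T cells had 21 tested members, of which 7 rose, 5 fell and 9 did not pass. The rises were those of Tcf7, Id3, Cxcr5, Ccr7, S1pr1, Myc and Spib, and the falls those of Il10, Prdm1, Id2, Ifng and Cd28. Prdm1 is the deleted gene, so its fall was set by the design. Myc rose by 0.22 ± 0.05, while Tbx21, which encodes T-bet, and Irf4 did not pass (-0.04 ± 0.06 and -0.12 ± 0.05). The list's median log2 change was 0.07. The plot of gene lists sets these shares beside those of all genes.

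**Figure D3:**
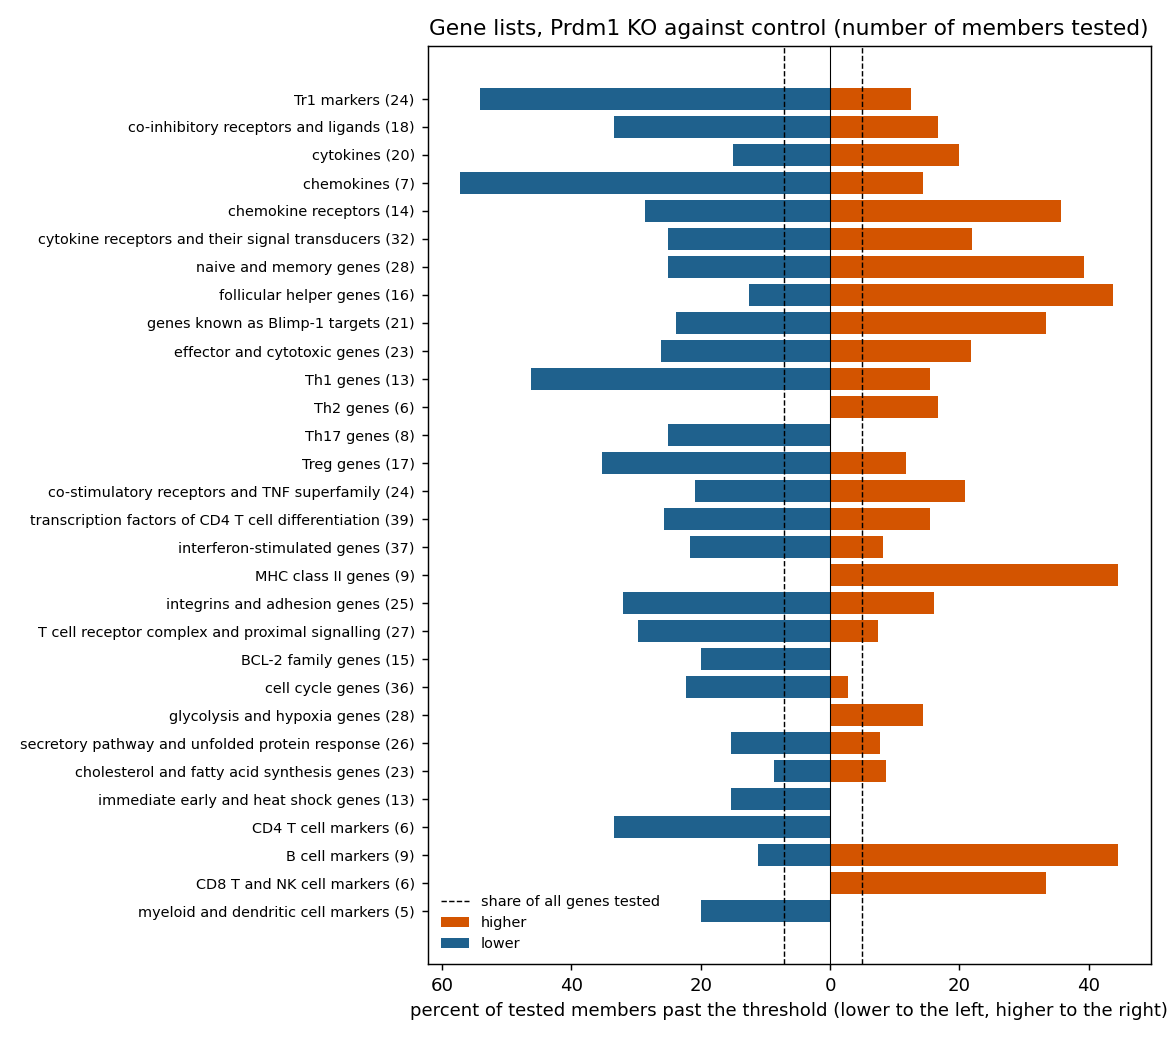
Percent of the tested members of each gene list that passed the threshold as higher (orange, to the right) or lower (blue, to the left) in the Prdm1 knockout; the number of members tested stands after each name, and dashed lines mark 4.97% and 7.11%, the shares over all 11316 genes. The Tr1 list has 13 of 24 members to the left, Prdm1 itself among them.

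Cytotoxic genes were split, with 5 of 23 tested members higher and 6 lower. Gzmb, the protease granzyme B and among the most abundant transcripts of these cells, had 8148 ± 67.1 TPM, a level scaled for transcript length, in the controls and 4920 ± 331 in the knockout (SD, n = 3 libraries each), and was 1.76-fold lower in the fit (-0.82 ± 0.05, adjusted p = 9.27e-10). Prf1, the pore-forming protein perforin, fell by 0.29 ± 0.05. Crtam, a surface receptor linked to cytotoxic CD4 cells, rose from 16.4, 17.3 and 22.03 to 35.4, 34.1 and 41.96 CPM, and Ctsw, a cathepsin, rose by 0.34 ± 0.05. Lamp1, a lysosomal membrane protein, rose by 0.79 ± 0.14, with controls spread from 31.9 to 61.9 CPM. Foxp3, the regulatory T cell factor, did not pass (0.12 ± 0.15, adjusted p = 0.654). Zbtb32, a repressor in activated lymphocytes, fell by 0.36 ± 0.05, and Nr4a2, an orphan nuclear receptor, rose by 0.51 ± 0.09.

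Other large falls concerned surface, redox and protease genes. Emp1, an epithelial membrane protein, fell from 36.7, 36.4 and 30.01 to 8.13, 6.10 and 5.79 CPM (-2.36 ± 0.15, adjusted p = 9.27e-10). Glrx, the thiol reductase glutaredoxin, fell from 430, 439 and 397 to 165, 164 and 156 CPM (-1.38 ± 0.05, adjusted p = 7.57e-14). Both were named by the ranking that required no overlap between the groups. Adam8, a membrane metalloprotease, fell by 1.32 ± 0.19, Furin, a proprotein convertase, fell by 1.12 ± 0.10 and Pyhin1, an interferon-inducible gene, fell by 1.53 ± 0.14. Further rises were those of Slc2a6, a member of the glucose transporter family, by 1.20 ± 0.12, the actin-binding Synpo by 1.13 ± 0.15, the nuclear protein Aff3 by 1.01 ± 0.11 and Penk, the precursor of enkephalins, by 1.00 ± 0.13. Sema4f, a semaphorin, rose by 0.85 ± 0.11.

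F2rl2, which encodes the thrombin-responsive receptor PAR3, fell from 24.4, 29.2 and 21.7 to 7.15, 6.78 and 4.83 CPM (-2.01 ± 0.17, adjusted p = 7.77e-08). Of 33 genes named as the target, as Il10 or Maf, or by size of effect, 22 matched a promoter window in the RefSeq table (build GRCm38.p6). Windows reach from 250 bases before to 50 bases after the start. Il10, Maf, Ccl4 and Ccl5 were among the genes without a window and were not searched. F2rl2 was the only searched gene whose window holds AGNGAAAG, a core of the Blimp-1 motif, on either strand. The window, at chr13:95696670-95696969, plus strand, is shown with that match in capitals. The match lies on the reverse strand as written. The N of the pattern stands for any base and is A in this match.
F2rl2: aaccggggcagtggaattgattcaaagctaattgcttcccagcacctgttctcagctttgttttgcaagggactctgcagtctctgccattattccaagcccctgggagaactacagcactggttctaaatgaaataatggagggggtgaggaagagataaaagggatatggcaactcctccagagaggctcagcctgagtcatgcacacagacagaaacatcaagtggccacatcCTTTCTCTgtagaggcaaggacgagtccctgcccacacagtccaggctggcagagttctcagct
The motif was present in 11.4% of the 439 genes that rose and have a window, in 9.71% of the 628 that fell and in 9.03% of the 9054 tested genes that have one. Among all 32851 windows the share was 8.63%. A match is a description of letters and not a binding site.

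Interferon-stimulated genes moved in both directions, with 8 of 37 lower, 3 higher and 26 not past the threshold. The guanylate-binding proteins Gbp7, Gbp6 and Gbp4 fell by 0.56 ± 0.07, 0.52 ± 0.06 and 0.50 ± 0.11, and Isg20, an RNA exonuclease, fell by 1.34 ± 0.18. Usp18, which restrains type I interferon signalling, rose from 35.01, 31.4 and 33.6 to 61.1, 64.9 and 71.6 CPM. Irf7 did not pass (-0.17 ± 0.12, adjusted p = 0.421). Cell cycle genes had 8 of 36 members lower and 1 higher, or 25.0% called against 12.1% of all genes tested. The sizes were small: Rrm2, a ribonucleotide reductase subunit, fell by 0.34 ± 0.05 and Ccnb1, cyclin B1, fell by 0.23 ± 0.05. Among 28 glycolysis and hypoxia genes 4 rose and none fell, or 14.3%, close to the 12.1% called among all genes tested. Without knockout replicate 3, 9 of the 28 rose, in a refit where 475 of 11247 genes tested rose. Pfkp, a phosphofructokinase, was 656, 645 and 673 CPM in the controls and 897, 894 and 745 in the knockout, so that replicate 3 lay nearest to the controls. Among 15 tested BCL-2 family genes 3 fell and none rose. The closely related copies Bcl2a1d and Bcl2a1b fell by 0.83 ± 0.09 and 0.58 ± 0.06, and reads of such copies can be assigned to either.

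Some abundant genes combined a large difference in TPM with a small fold change. Tmsb4x, the actin-sequestering thymosin beta 4, fell from 7572 ± 253 TPM to 5751 ± 173 (SD, n = 3 each), with a log2 change of -0.48 ± 0.06 on the count scale. The actins Actb and Actg1 fell by 0.23 ± 0.06 and 0.24 ± 0.06, B2m, the light chain of MHC class I, fell by 0.28 ± 0.07 and Tpt1, a translationally controlled protein, fell by 0.28 ± 0.06. These changes are small and the calls of Actb and B2m were lost without control replicate 2.

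Markers of other cell types were low but not equal between the groups. Of 9 tested B cell markers 4 were higher and 1, Faim3, was lower, and the summed level of the list's 15 genes in the table ran from 26.2 to 27.7 CPM in the controls and from 30.5 to 36.1 in the knockout. Cd79a, a signalling chain of the B cell receptor, had a ratio of summed counts, knockout over control, of 7.29, with a 95% exact interval from 3.997 to 14.6 that covers counting error only, while Cd79b did not pass (adjusted p = 0.28) and Ms4a1, which encodes CD20, was at most 0.54 CPM in all 6 libraries. Spib and Faim3 lost their calls without knockout replicate 3, and 2 members of the list were then higher and none lower. The antigen-presentation genes H2-Aa, H2-Eb1 and Cd74 moved with these markers, by 2.12 ± 0.41, 1.40 ± 0.24 and 1.07 ± 0.15, and so did Cd86, a co-stimulatory ligand, by 1.84 ± 0.24. H2-Aa lay at 0.99, 0.68 and 0.60 CPM in the controls and at 2.25, 3.96 and 3.95 in the knockout. Of 9 tested MHC class II genes 4 rose and none fell, and without knockout replicate 3 the number that rose was 6. The part of B cells in these rises was not tested.

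Cd8a, a chain of the CD8 coreceptor that CD4 cells switch off in the thymus, had 1, 2 and 0 counts in the controls and 45, 52 and 73 in the knockout. The ratio of summed counts was 48.1, with a 95% exact interval from 16.2 to 236 for counting error (adjusted p of the fit = 3.71e-07), and the groups did not overlap. Cd8b1, the partner chain, lay at 10.5, 9.74 and 10.9 CPM in the controls and at 12.2, 12.3 and 13.3 in the knockout and did not pass (adjusted p = 0.227). Ncr1, an NK cell marker, had no count in these 6 libraries. The summed level of the 13 CD8 T and NK cell markers ran from 122 to 126 CPM in the controls and from 148 to 156 in the knockout, and most of it was Klrk1, which encodes NKG2D and rose by 0.23 ± 0.06. The part of CD8 T cells in the Cd8a level was not tested. Myeloid markers ran from 209 to 232 CPM in the controls and from 204 to 229 in the knockout, with Lyz2 at 0 in all 6 libraries. A large part of this sum was the chemokine Ccl9, with means of 76.3 CPM in the controls and 61.1 in the knockout. Ccl9 was the 1 of 5 tested members that passed, as lower (-0.32 ± 0.10, adjusted p of the fit = 0.033). Without knockout replicate 3, 1 member was higher and 0 lower. Erythroid and platelet markers summed to at most 0.35 CPM.

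**Figure D4:**
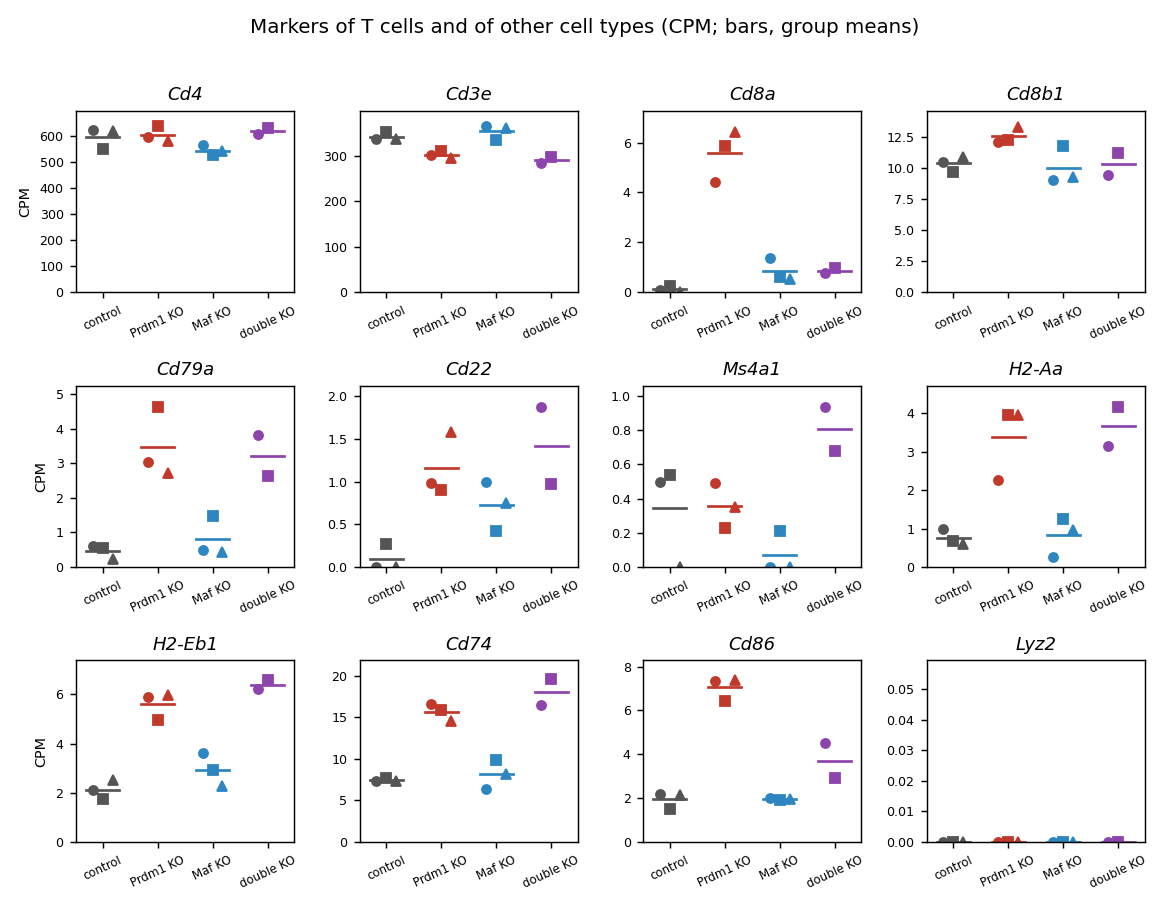
Level in CPM (y axis, from 0) of T cell markers, CD8 chains, B cell markers, antigen-presentation genes and the myeloid gene Lyz2 in each library of the 4 groups; symbols are replicates and bars are group means. Cd8a lies between 4.41 and 6.41 CPM in the Prdm1 knockout and at 0.27 CPM or less in the controls.

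The effect of Prdm1 loss was measured a second time in cells that also lacked Maf, by setting the double knockout (2 libraries) against the Maf knockout (3 libraries), a comparison that shares no library with the first but shares its estimate of spread. It called 1116 genes, or 9.86%, with 536 higher and 580 lower. Of these, 444 were also called in the first comparison in the same direction, which is 32.5% of the first list and 39.8% of the second, and 19 were called in opposite directions. Of the 1366 genes called in the first comparison other than Maf, 86.2% had the same sign in the second, against 64.7% of all genes tested. Prdm1 lay at 14.4, 12.4 and 13.9 CPM in the Maf knockout and at 3.32 and 3.69 in the double knockout. Lif, Tcf7 and Igfbp4 rose there too, by 1.25 ± 0.08, 0.89 ± 0.08 and 0.95 ± 0.07, and Entpd1 and Emp1 fell by 1.36 ± 0.15 and 2.09 ± 0.27. The number of calls fell to between 376 and 643 when any of the 5 libraries was left out. The Maf knockout libraries stood apart from all other groups in Nnt (values below), and a difference of those mice beyond Maf was not tested.

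A test of the difference between the 2 backgrounds passed for 124 genes, or 1.1% of those tested, of which 79 were among the 1367. Il10 was one of them. It lay at 8.82, 9.22 and 10.3 CPM in the Maf knockout and at 0.77 and 1.36 in the double knockout. Prdm1 loss lowered Il10 8.99-fold without Maf (-3.17 ± 0.28) and 52.0-fold with Maf, a difference of 2.53 ± 0.47 on the log2 scale (adjusted p = 0.00702). Both end levels rest on few counts, 8 to 24 per Prdm1 knockout library and 9 and 14 in the double knockout. The SE values of these Il10 changes, derived from F, are approximate and do not combine into that of the difference. The starting levels differed, with means of 86.2 CPM in the controls and 9.46 in the Maf knockout. Prdm1 was itself lower in the Maf knockout than in the controls (-0.97 ± 0.15, edgeR adjusted p = 0.000152). Id2 and Glrx fell less where Maf was absent, by 0.91 ± 0.08 and 0.74 ± 0.06, with adjusted p-values of the difference of 0.00201 and 8.58e-05. Ccl5 fell by 1.28 ± 0.07 there (adjusted p of the difference = 0.00807). Ctla4 and Furin did not pass in the second comparison, at -0.22 ± 0.07 and -0.29 ± 0.13, and their differences did (adjusted p = 0.00463 and 0.00955). Cd8a lay at 1.37, 0.63 and 0.54 CPM in the Maf knockout and at 0.77 and 0.97 in the double knockout, and its effect differed as well (adjusted p = 0.00108). Serinc3 fell by 0.53 ± 0.07 with Maf and rose by 0.63 ± 0.07 without it. Without knockout replicate 3 the count of such differences was 405, and it was 41 without double knockout replicate 2.

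**Figure D5:**
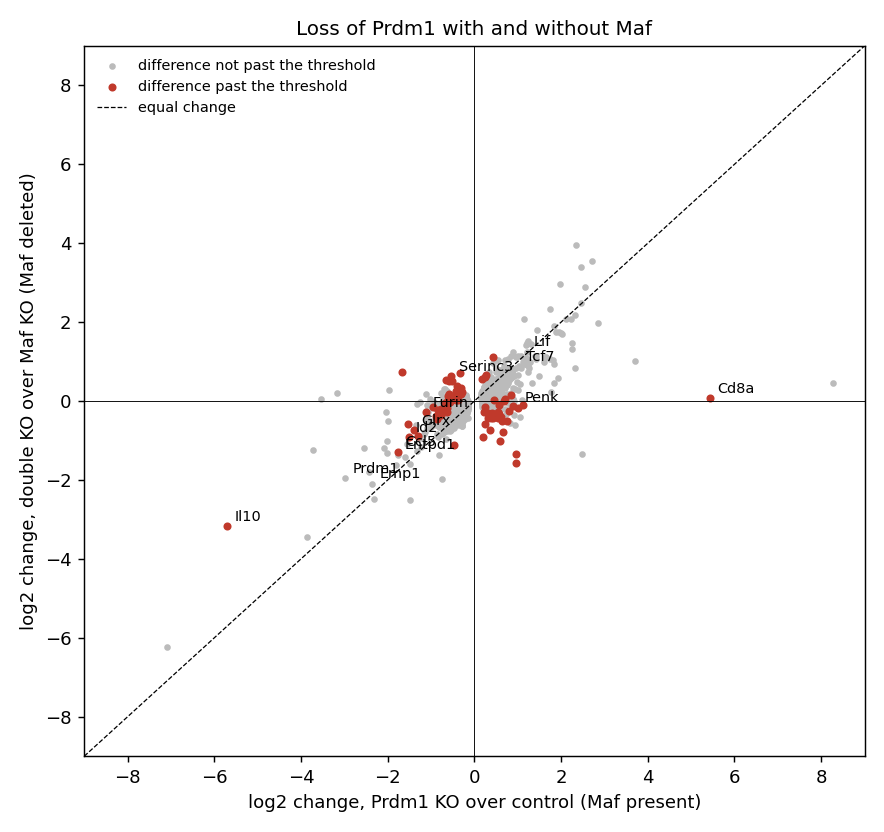
Log2 change on loss of Prdm1 with Maf present (x axis, Prdm1 knockout over control) and with Maf deleted (y axis, double knockout over Maf knockout) for the 1366 genes called in the first comparison other than Maf; red points passed the test of the difference, and the dashed line marks equal change. Il10 lies at -5.70 and -3.17, above the line.

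Set directly against each other, the Prdm1 and Maf knockouts differed at 928 genes, or 8.2%, with 442 higher and 486 lower in the Prdm1 knockout. Without Maf knockout replicate 2 the count was 598. Il10 was lower in the Prdm1 knockout than in the Maf knockout, by 2.52 ± 0.23 on the log2 scale (adjusted p = 1.23e-07). Il1r2, Ccl5 and Fgl2, a secreted fibrinogen-like effector of regulatory T cells, were lower by 1.52 ± 0.11, 1.54 ± 0.06 and 1.31 ± 0.11. Lif and Timp1, an inhibitor of metalloproteases, were higher by 1.52 ± 0.08 and 1.77 ± 0.09, and Timp1 lay at 185, 177 and 159 CPM against 46.6, 47.0 and 59.1. Serpina3f, a serine protease inhibitor, was higher by 1.97 ± 0.15. Emp1, low in both knockouts, did not differ past the threshold (0.15 ± 0.18, adjusted p = 0.715, a difference whose SE allows changes of either sign), and the same held for Ctla4 (0.06 ± 0.07). Nnt, a mitochondrial transhydrogenase gene that carries a deletion in the C57BL/6J substrain, lay at 54.4, 55.5 and 57.0 CPM in the Maf knockout and at 19.5, 19.2 and 17.7 in the Prdm1 knockout. It lay at 18, 17.04 and 20 CPM in the controls and at 19.1 and 18.1 in the double knockout. The labels give C57BL/6 with no substrain. Whether the Maf knockout mice differed from the other groups in more than Maf was not tested. Every comparison that uses the Maf knockout libraries, including the difference between backgrounds, carries that limit.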

How the data were processed

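RNA from 12 libraries of the Prdm1 and Maf experiment was used, and the group of each came from its title and genotype. Per the submitters' processing notes, the authors used TopHat, RSEM and mm9, with no versions. The authors deposited RSEM expected counts per gene, not scaled for depth, for 23366 genes, and TPM values, which RSEM scales by transcript length and total. Of nonzero expected counts, 42.7% are not whole, and they were rounded here. Replicate 3 of the double knockout, with 9056 counts, was left out of every fit. edgeR 4.0.16 in R 4.3.3 fitted the other 11 libraries with a mean per group (filterByExpr, TMM scaling, quasi-likelihood F-test, 7 residual degrees of freedom), with Benjamini-Hochberg adjustment over all 11316 genes tested and a threshold of 0.05. CPM use effective library sizes. DESeq2 1.42.0 was an alternative. A count of 3 is 0.26 to 0.41 CPM in these 6 libraries, and depth limits values near it.

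The libraries compared, gene lists and naming rule were chosen with earlier results of these data known. Named were Prdm1, Il10 and Maf, then the called genes with the largest log2 change among genes that reach 20 CPM in one of the groups and show no overlap between libraries, the called genes with the largest TPM difference, the first members and the called members with the largest change of each list, and the genes leading the other comparisons. Predicted, small RNA, ribosomal and antigen receptor genes were left out of the rankings. Single values of some list members are not reported here. Promoter windows came from RefSeq, build GRCm38.p6, by symbol, and no coordinate was converted from mm9.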

Additional observations from a re-analysis of the deposited data

Results flagged for a closer look

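Each gene listed here had a change on loss of Prdm1 that differed between cells with Maf and cells without it, by the edgeR test of the difference over all genes tested (adjusted p under 0.05). The values are log2 differences, the change with Maf deleted minus the change with Maf present. Il10 had a difference of 2.53. Among receptors, Ctla4 had 0.54, Icos 0.45, Klrc1 0.77 and Klrk1 0.37. Among chemokines, Ccl5 had 0.48 and Ccl4 had 0.40. Id2 had 0.61, Glrx 0.64, Furin 0.84, Pyhin1 0.94 and Bcl2a1d 0.60. Values above 0 were also found for Serinc3, 1.16, and Serpina3f, 1.41. Values below 0 were found for Asb2, -0.65, Sema4f, -0.70, Foxp3, -0.999, Lamp1, -1.04, Penk, -1.18, Nnt, -1.61, and Cd8a, -5.37. Foxp3 lay at 13.3, 14.2 and 11.6 CPM in the Maf knockout and at 7.65 and 6.5 in the double knockout, and between 10.9 and 15.3 CPM in the other 6 libraries. Penk lay at 37.8, 41.9 and 48.5 CPM in the Maf knockout and at 37.7 and 38.3 in the double knockout. The Nnt difference came from the Maf knockout libraries alone, which lay above all other groups. Nnt did not pass between Prdm1 knockout and control, so its value is not a measured dependence of a Prdm1 effect on Maf. The double knockout side of each difference rests on 2 libraries.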

How the results depend on the processing

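Fits of only the compared libraries called 908 genes for the Prdm1 knockout against control and 1825 for the double against the Maf knockout. With no filter on low counts, 349 differences between backgrounds passed. Leaving out each library in turn gave 763 to 1464 genes for the Prdm1 knockout against control and 376 to 643 for the double against the Maf knockout. It gave 41 to 405 for the difference between backgrounds and 598 to 1079 for the Prdm1 against the Maf knockout. Replicate numbers share no stated origin, and deviations of Prdm1 knockout and control libraries of the same number correlated at 0.001, 0.084 and 0.015; with a replicate block the counts were 1436, 1297, 115 and 994. DESeq2 called 1134, 912, 135 and 806 genes. Shared calls in these refits kept their direction.

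Of 90 named genes past the threshold, 84 remained so without any 1 of the 6 libraries, and Ifng, Actb, B2m, Cd3e, Faim3 and Spib did not. Without 1 library each in turn, 4 uncalled changes turned sign: Il27ra ran from -0.0063 to 0.064, Tbx21 from -0.11 to 0.00698, Cd4 from -0.041 to 0.049 and Nnt from -0.013 to 0.097. Depth limits Havcr2, Cd8a, Il2, the B cell markers and the Il10 level of the Prdm1 and double knockouts, which have few counts.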
